A study of Rattus norvegicus with 2 samples.

Results

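FOSL1 is a subunit of AP-1, a transcription factor that forms dimers of FOS and JUN family proteins and binds short DNA motifs in promoters and enhancers. In Schwann cells, the glia that ensheathe peripheral axons, AP-1 proteins are known for their part in the repair state that follows nerve injury. The regions described here are the wide FOSL1-FLAG peaks, meaning the stretches of at least 400 bp in which DNA captured with FOSL1 exceeded the background. A peak runs from a start to an end, and its summit is the base with the highest pile-up of ChIP fragments. Members were chosen by their deposited width, which was set by peak calling on the same library as every other value given here. They are the peaks on chromosomes 1 to 20 whose end minus start was 400 bp or more. They numbered 5281 of 103261 autosomal peaks and of 104960 peaks in the whole list, and the remaining 97980 autosomal peaks served for comparison. A further 46 peaks of this width lay outside the autosomes and were not included.

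Primary Schwann cells from sciatic nerves of newborn rats (the methods name Sprague-Dawley animals), of wild-type genotype by the labels, carried FOSL1 with a triple FLAG tag from a lentivirus of the pRlenti-SFH-EGFP-P2A-Puro series, with CMV named before FOSL1 in the construct. There was 1 ChIP library, made with an anti-FLAG antibody, and 1 input library of the same cells without antibody. The study's methods add that Thy1.1-positive fibroblasts were removed and that the medium held forskolin and heregulin. No replicate and no anti-FLAG library of control cells was analysed here, so the peaks describe DNA captured from cells that overexpressed tagged FOSL1, and nothing could be tested over samples. No p-value was computed across peaks, which are not replicates. Intervals of shares are exact 95% binomial (Clopper-Pearson) intervals, cover counting error only, and treat peaks as independent although neighbouring peaks are not. No gene or DNA sequence could be read at the peaks, since the rn6 sequence and annotation were not used here. EPHB2, a receptor tyrosine kinase gene that the study examined as a target of FOSL1, is tied there to peaks 13, 24694, and 100680. The deposited peaks with these numbers were 218, 150, and 150 bp wide, so none of the 3 was a wide peak. This link rests on the peak numbers alone, since the spans printed in the study have other widths and the position of the gene was not checked here.

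Wide peaks formed the tail of a narrow distribution. Autosomal peaks had a median width of 199 bp, with a minimum of 150 bp, whereas the median wide peak measured 468 bp and the widest 1558 bp. The group thinned out quickly with width. Of the 5281 peaks, 2081 (39.4%) were 400 to 449 bp wide, 1283 (24.3%) were 450 to 499 bp, 1192 (22.6%) were 500 to 599 bp, 602 (11.4%) were 600 to 799 bp, and 123 (2.33%) were wider still, 26 of them reaching 1000 bp. Although they made up 5.11% of autosomal peaks, wide peaks covered 2.65 Mb, or 11.3% of the 23.4 Mb under all autosomal peaks. The limit of 400 bp did not mark a break. There were 47 peaks of exactly 400 bp, just inside the limit, and 47 of exactly 399 bp, just outside. The 523 peaks of 400 to 409 bp had a median fold over background of 3.40 and the 568 peaks of 390 to 399 bp one of 3.35, with a median of 15 ChIP fragments in both.

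Wide peaks stood higher than the rest of the list, over a somewhat higher background. The number of ChIP fragments at the summit and the local background, in fragments, were recovered from the deposited fold and p-value, and the fold is the authors' ratio of the ChIP to the background at the summit. Wide peaks had a median of 16 fragments (5th to 95th percentile 11 to 25), against 14 (9 to 20) in other peaks. The median local background was 4.0 fragments against 3.45, and 3.96% of wide peaks had the lowest background of the list, 2.24 fragments, against 8.08% of other peaks. Among peaks of like height, the background of wide peaks was not higher in any band from 7 to 40 fragments. It was 4.8 against 5.0 with 20 to 22 fragments and 5.1 against 6.0 with 27 to 30. Only above 40 fragments was it higher, at 33.5 against 27.5. The median fold was 3.40 (2.31 to 4.90) in wide peaks and 3.17 (2.29 to 4.39) in other peaks, so the ranges of both groups overlapped widely. All of these values come from the library that set the widths and are given as a description.

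Among wide peaks, 4147 (78.5%, interval 77.4 to 79.6%) had a q-value of at most 0.05, where 60.7% of all autosomal peaks did. A fold of at least 4 was reached by 1184 (22.4%), where 11.9% of autosomal peaks did, and a q-value of at most 1e-05 by 381 (7.21%), where 1.96% did. On the other side, 1134 wide peaks (21.5%) had a q-value above 0.05, against 40.2% of other peaks and 39.3% of all autosomal peaks. Weak peaks were thus less frequent among wide peaks but not absent. Among the weakest members, that on chromosome 8 between 13295825 and 13296263 showed 13 fragments against a local background of 6.0, which gave a fold of 1.98 at a q-value of 0.530.

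The share of wide peaks grew with the height of the peak. It was 1.03% (interval 0.776 to 1.35%) among peaks with 7 to 9 fragments, 5.10% (4.82 to 5.39%) with 14 to 15, 12.5% (11.6 to 13.4%) with 20 to 22, and 22.4% (16.8 to 28.9%) with 31 to 40. Of the 100 autosomal peaks with the smallest p-values 29 were wide, and of the first 1000 it was 207 (20.7%), whereas of the 10000 with the largest p-values only 232 (2.32%) were. Most peaks were nevertheless narrow at every height, and even with 31 to 40 fragments 152 of 196 were below 400 bp. Within wide peaks, height and width went together only loosely, with a Spearman rho of 0.20 between width and fragments over 5281 peaks of 1 library.

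**Figure D1:**
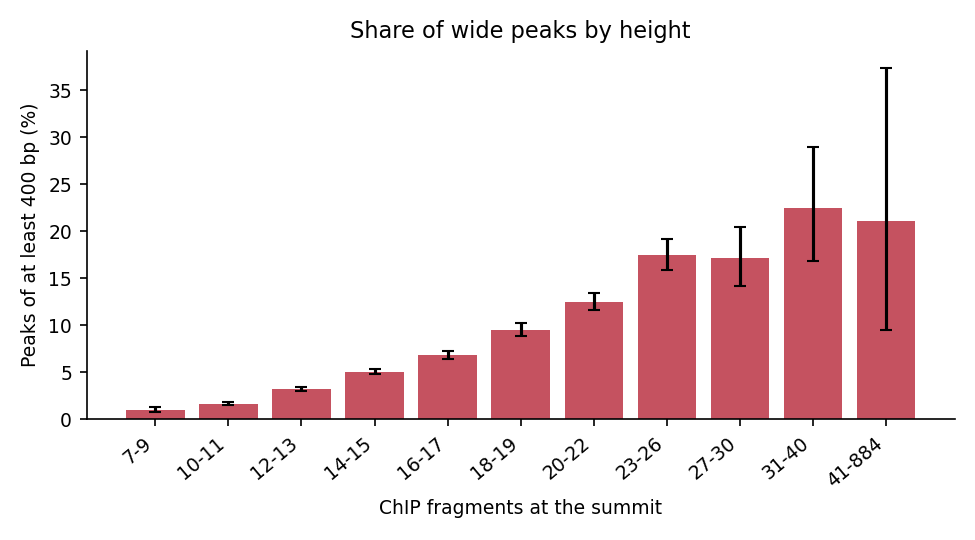
Percentage of autosomal FOSL1-FLAG peaks that were at least 400 bp wide (vertical axis) by the number of ChIP fragments at the summit (horizontal axis, bands of fragments). Bars give the share and lines the exact 95% binomial interval, and the share climbs from 1.03% at 7 to 9 fragments to 22.4% at 31 to 40.

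By fold, the strongest wide peaks were found on several chromosomes, and none of the first 10 was among the 10 widest. Ranked by fragments or by p-value the order was different, and the first was a peak of 1200 bp on chromosome 19, among the 10 widest, with 884 fragments, a background of 448, and a fold of only 1.95. The first by fold, on chromosome 10 from 43740475 to 43741074, was 600 bp wide and had 35 fragments, with an exact 95% Poisson interval from 24.4 to 48.7, against a background of 3.09. Its fold was 8.73 and its summit lay near the center, 293 bp from the start. On chromosome 1 from 218810357 to 218811014 a peak of 658 bp had the same 35 fragments over 3.09 and the same fold. The third was also on chromosome 1, from 228444438 to 228445349, with 912 bp, 35 fragments over 3.3, and a fold of 8.30. With the same number of fragments, these 3 peaks could not be ranked at this depth. The 10 wide peaks with the highest fold lay on 8 chromosomes, were 443 to 1124 bp wide, had 26 to 37 fragments, and had folds of 7.06 or more.

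The widest peak, on chromosome 13 from 91816877 to 91818434, measured 1558 bp but had 14 fragments (7.65 to 23.5) over 2.61 and a fold of 4.12. Next came a peak of 1263 bp on chromosome 16 from 21273795 to 21275057, with 22 fragments and a fold of 4.56, and one of 1257 bp on chromosome 10 from 55620581 to 55621837, with 29 fragments and a fold of 5.61. In the last of these the summit lay 93 bp from the start and 1163 bp from the end. The 10 widest peaks were at least 1173 bp wide, with folds between 1.95 and 6.42, and 0 of them were among the 10 with the highest fold. One of the widest 10, on chromosome 4 from 58370181 to 58371377, had a q-value of 0.0951, with 18 fragments over 7.0.

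Wide peaks and the rest differed in where the summit lay, but the limit of 400 bp did not mark the change. The summit was central, meaning between 0.333 and 0.667 of the width from the start, in 1336 wide peaks (25.3%, interval 24.1 to 26.5%) and in 53.5% (53.2 to 53.8%) of other peaks. Of the wide peaks, 2007 (38.0%) had it nearer the start and 1938 (36.7%) nearer the end, so both ends were used almost equally. Other peaks had 25.4% of summits on the start side and 21.1% on the end side. The high central share of other peaks came from the narrow ones among them, with 55.4% at 150 to 199 bp and 69.8% at 200 to 249 bp. It was 43.01% at 250 to 299 bp and 27.1% (26.1 to 28.2%) at 300 to 349 bp. At 350 to 399 bp it was 23.7% (22.4 to 25.1%), so peaks just below the limit had their summit off center as often as wide peaks. The same direction was seen on each of the 20 autosomes, where 17.8 to 31.5% of summits of wide peaks and 52.01 to 54.8% of those of other peaks were central.

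The positions of the summits in wide peaks formed 3 humps. The stretch from 0.15 to 0.25 of the width held 16.7% of summits, that from 0.45 to 0.55 held 9.34%, and that from 0.75 to 0.85 held 15.4%. Between them the density dropped, to 3.07% from 0.35 to 0.40 and 2.88% from 0.60 to 0.65. Other peaks had a single broad maximum, with 17.98% of summits from 0.45 to 0.55.

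**Figure D2:**
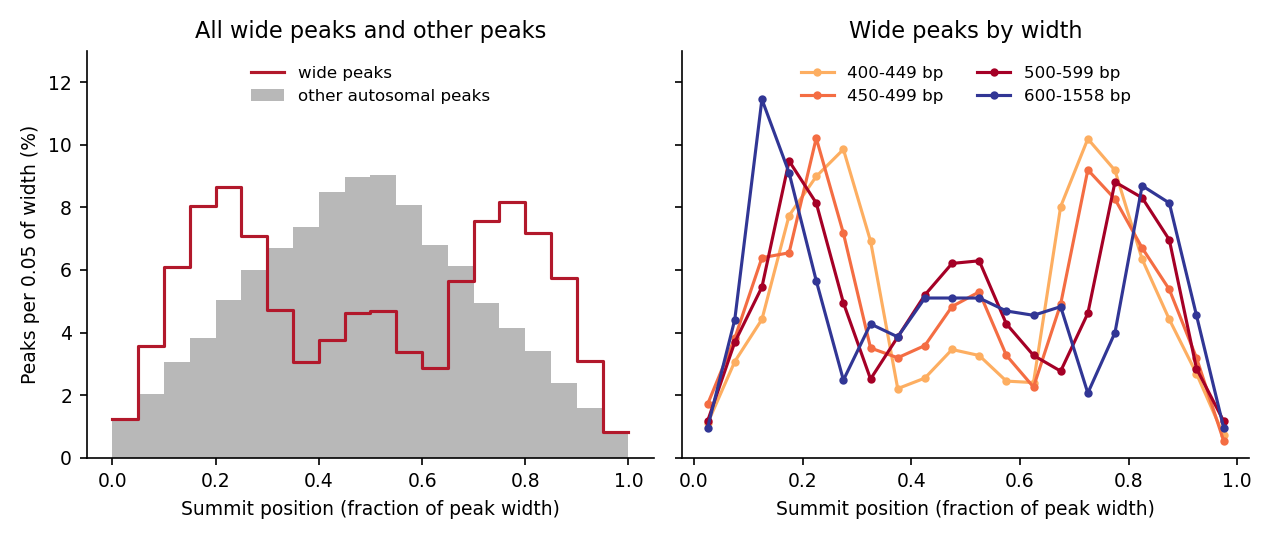
Position of the summit as a fraction of the peak width (horizontal axis) against the percentage of peaks per 0.05 of width (vertical axis). Left, wide peaks (red line, 5281) and other autosomal peaks (grey bars, 97980). Right, wide peaks in 4 classes of width. Wide peaks have 3 humps with the center lowest, while other peaks have 1 central maximum, and the outer humps move toward the ends as width increases.

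Measured in base pairs, the outer summits kept a similar distance from the nearer edge as the peaks became wider. Among summits that were not central, the median distance to the nearer edge was 94 bp in peaks of 400 to 449 bp, 99 bp at 450 to 499 bp, 100 bp at 500 to 599 bp, and 110 bp at 600 bp or more. As a fraction of the width, the same medians went down from 0.223 to 0.159. With central summits included, the median distance to the farther edge went from 315 bp in peaks of 400 to 449 bp to 711 bp in those of 800 bp or more, and that to the nearer edge from 106 to 203 bp. Over all wide peaks the summit was a median of 115 bp from the nearer edge and 351 bp from the farther, against 66 and 126 bp in other peaks.

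A sharp step was present at 150 bp, which is also the width of the narrowest autosomal peaks. In 3914 wide peaks (74.1%, interval 72.9 to 75.3%) the summit lay within 150 bp of the nearer edge, less often than in other peaks (99.8%) or in all autosomal peaks (98.5%), most of which are too narrow for a greater distance. There were 341 wide peaks at 131 to 140 bp, 275 at 141 to 150 bp, and only 50 at 151 to 160 bp, after which the number rose again to 154 at 191 to 200 bp. The step was not particular to wide peaks, since other peaks numbered 1397, 581, and 40 in the same 3 ranges. The share within 150 bp was 85.5% (83.9 to 87.0%) at widths of 400 to 449 bp and 53.8% (50.1 to 57.5%) at 600 bp or more. Wide peaks thus fell into a larger set with the summit at most 150 bp from an end and a smaller set with the summit deeper inside.

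**Figure D3:**
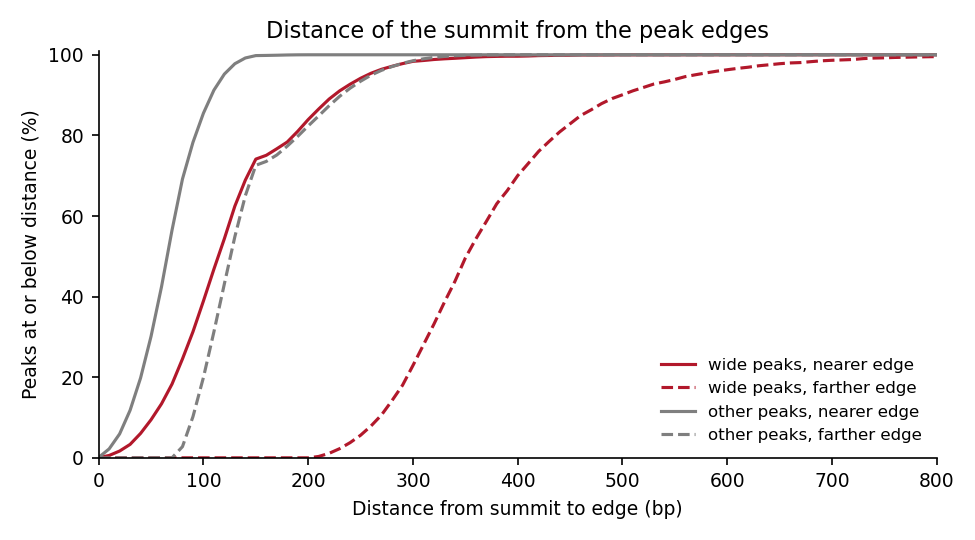
Percentage of peaks (vertical axis) whose summit lay at or below a given distance in bp from the nearer edge (solid) or the farther edge (dashed), for wide peaks (red) and other autosomal peaks (grey). The curve of the nearer edge in wide peaks rises to 74.1% at 150 bp, bends sharply there, and continues more slowly. Other peaks bend at the same distance, where their farther edge goes only from 72.6% at 150 bp to 73.5% at 160 bp.

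The central share went up with width among wide peaks and did not follow height. Summits were central in 20.4% (18.7 to 22.2%) of peaks of 400 to 449 bp, in 23.5% (21.2 to 25.96%) at 450 to 499 bp, and in 31.9% (29.2 to 34.6%) at 500 to 599 bp, and it stayed at 31.7% above that. With 10 to 11 fragments the share in wide peaks was 19.5% (15.2 to 24.4%) and in other peaks 42.7%, and with 31 to 40 fragments it was 20.5% (9.80 to 35.3%) and 73.7%. Among peaks below 400 bp, tall ones thus had a central summit more often than low ones. Wide peaks stayed near 1 level, between 19.5 and 29.6% from 7 to 40 fragments. When other peaks were weighted to the fragment counts of wide peaks, 59.1% of their summits were central, and the difference of wide minus other peaks went from -28.2 to -33.8 percentage points.

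In a few wide peaks the summit was at the very end. It lay within 20 bp of an edge in 89 wide peaks (1.69%) and in 5.93% of other peaks. On chromosome 2 a peak from 74188491 to 74188991 had its summit on its first base, with 11 fragments over 4.0 and a fold of 2.38, and a peak on chromosome 5 from 77116322 to 77116814 did so with 15 fragments over 7.0 and a fold of 1.98. The 5 wide peaks with the most terminal summits had q-values between 0.164 and 0.530.

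Wide peaks lay in denser neighborhoods than other peaks when counted over 1 kb or more, but not within 500 bp. The nearest other summit was a median of 2575 bp away, against 4520 bp for other peaks. Another summit was present within 5 kb of 3592 wide peaks (68.0%, interval 66.7 to 69.3%) and of 52.8% (52.5 to 53.1%) of other peaks, and the share was higher for wide peaks on 20 of 20 autosomes. Within 1 kb the shares were 22.2% and 15.8%, within 20 kb 93.7% and 85.6%. At 500 bp there was hardly a difference, with 4.75% (4.19 to 5.36%) of wide and 4.83% of other peaks. Other peaks weighted to the fragment counts of wide peaks had 6.30%, above that interval. Width itself limits this count, since the edges of neighboring peaks were at least 114 bp apart. The farther edge of a wide peak lay a median of 351 bp from its summit, against 126 bp in other peaks. The shares at 500 bp therefore cannot show whether wide peaks had fewer close neighbors apart from their width. The window of 20 kb on each side held a median of 4 other peaks around wide peaks and 3 around the rest, and at least 5 around 38.9% and 25.9%, respectively.

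Height moved with this result. In other peaks the share with another summit within 5 kb rose in every band, from 30.8% with 7 to 9 fragments to 70.4% with 31 to 40. In wide peaks it rose from 50.9% (36.8 to 64.9%) with 7 to 9 fragments to 79.3% (74.8 to 83.4%) with 23 to 26 and was lower above that. Among peaks with 14 to 15 fragments, 67.4% (64.6 to 70.1%) of wide and 56.2% (55.5 to 56.8%) of other peaks had another summit within 5 kb, and with 10 to 11 fragments the shares were 53.9% (48.2 to 59.6%) and 41.1% (40.4 to 41.9%). With 27 to 30 fragments they were 68.3% (58.3 to 77.2%) and 69.9%, and with 31 to 40 they were 63.6% (47.8 to 77.6%) and 70.4%, so wide peaks had the lower share in both bands and no difference was detectable at this depth. Weighting other peaks to the fragment counts of wide peaks raised their share from 52.8 to 59.3%, which left a difference of 8.77 of the original 15.2 percentage points. Weighting to bands of fragments and to chromosomes at once gave 59.4%.

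**Figure D4:**
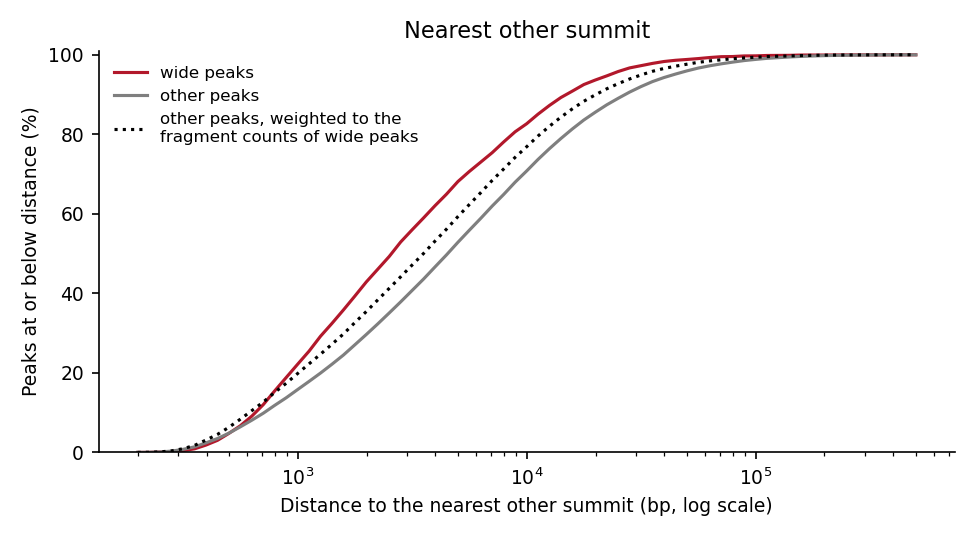
Percentage of peaks (vertical axis) with another summit at or below a given distance (horizontal axis, bp, log scale), for wide peaks (red), other autosomal peaks (grey), and other peaks weighted to the fragment counts of wide peaks (dotted). At 5 kb the curves stand at 68.0, 52.8, and 59.3%, and at 500 bp at 4.75, 4.83, and 6.30%.

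Width and neighbors also went together within the group. Another summit lay within 5 kb of 66.0% (63.9 to 68.1%) of peaks of 400 to 449 bp and of 79.7% (71.5 to 86.4%) of those of 800 bp or more, and below the limit the share went up in the same way, from 49.7% at 150 to 199 bp to 59.6% at 300 to 349 bp and 62.6% (61.1 to 64.2%) at 350 to 399 bp. The edges of neighboring autosomal peaks were never closer than 114 bp, and no interval was listed more than once. Over all wide peaks, with neighbors at any distance, the longer side did not point toward the nearer neighbor. The smaller of the gaps to both neighboring peaks was on the longer side in 49.2% (47.9 to 50.6%) of wide peaks and 49.7% of other peaks. That gap had a median of 2219 bp in wide peaks, and close neighbors alone were not examined.

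Of the 3592 wide peaks with another summit within 5 kb, 57.7% (56.1 to 59.4%) had more fragments than that nearest neighbor and 33.3% had fewer, whereas other peaks had more in 43.1%. These shares were not matched on fragments, of which wide peaks had more in general (median 16 against 14). The neighbor was usually narrow, with a median width of 207 bp next to wide peaks and 200 bp next to others. It was itself wide for 366 wide peaks (6.93%, 6.26 to 7.65%) and for 5.29% of other peaks, and for 6.12% of other peaks after weighting to the fragment counts, a value just under that interval.

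Most wide peaks therefore had no wide peak beside them, which also held for other peaks, as only 5.11% of autosomal peaks were wide. When wide peaks with summits at most 5 kb apart were joined, 4743 (89.8%) stood alone, 229 runs held 2, 21 held 3, 3 held 4, and 1 held 5. No matching count for other peaks is given here. The run of 5, on chromosome 10 from 82760841 to 82771629, spanned 10789 bp with 7 peaks in all, and its wide peaks were 400 to 1033 bp wide with 12 to 22 fragments and folds of 2.54 to 4.04. On chromosome 1 the third wide peak by fold closed a run of 3 from 228439023 to 228445349 with widths of 711 to 912 bp and folds of 3.97 to 8.30. A close couple was seen on chromosome 15, where the peak from 28016749 to 28017872, with 26 fragments and a fold of 7.39, was separated by 192 bp from a peak of 799 bp with 23 fragments and a fold of 5.95.

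The smallest distance from the summit of a wide peak to another was 221 bp. It belonged to the peak on chromosome 8 from 22973000 to 22973689, of 690 bp and 19 fragments, whose neighbor of 298 bp had 15 fragments. On chromosome 12, the peak from 51908552 to 51908980 had 18 fragments and lay 226 bp from the summit of a taller neighbor with 24 fragments and a width of 198 bp. Runs of at least 5 peaks of any width, with summits at most 5 kb apart, held 887 wide peaks, which is 16.8% of wide peaks and 8.54% of the 10386 peaks in such runs, and held 9.69% of other peaks. Isolated positions, with no other summit within 50 kb, were rare among wide peaks, at 63 (1.19%) against 4.08% of other peaks.

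Wide peaks were spread over all 20 autosomes. They ranged from 144 of 3551 peaks on chromosome 15 (4.06%, interval 3.43 to 4.76%) to 207 of 3054 on chromosome 12 (6.78%, 5.91 to 7.73%), with a median of 5.03%. Chromosome 10 followed with 472 of 7198 (6.56%, 5.996 to 7.15%), and chromosome 19 with 190 of 3125 (6.08%, 5.27 to 6.98%). The intervals of these 3 overlap one another. Those of chromosomes 10 and 12 do not overlap those of chromosomes 2 (4.06%, 3.65 to 4.50%), 4 (4.19%, 3.71 to 4.71%), 14 (4.14%, 3.54 to 4.80%), and 15. Nor do they overlap those of chromosomes 6, 8, 9, 11, 13, 16, 17, and 18. Per length, wide peaks numbered between 1.29 per Mb on chromosome 2 and 4.20 per Mb on chromosome 10, with a median of 1.91, taking the end of the last peak as the length of a chromosome.

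Chromosomes with more peaks of any width per Mb also had a larger share of wide ones. Over the 20 autosomes, which share 1 library, Pearson's r between both values was 0.88 and Spearman's rho 0.86, given as a description. The heights of the peaks gave a narrower spread. If each number of fragments carried its share of wide peaks over all autosomes, the chromosomes would range from 4.68 to 5.78%, against the 4.06 to 6.78% found. On chromosome 12 that calculation gave 5.52%, below the interval of the share found, and on chromosome 10 it gave 5.78%, again below. On chromosomes 2, 4, and 15 it gave 4.68, 4.86, and 4.81%, each above the interval of the share found. On chromosomes 10 and 12 together, 679 of 10252 peaks (6.62%) were wide, and on the other autosomes 4602 of 93009 (4.95%).

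**Figure D5:**
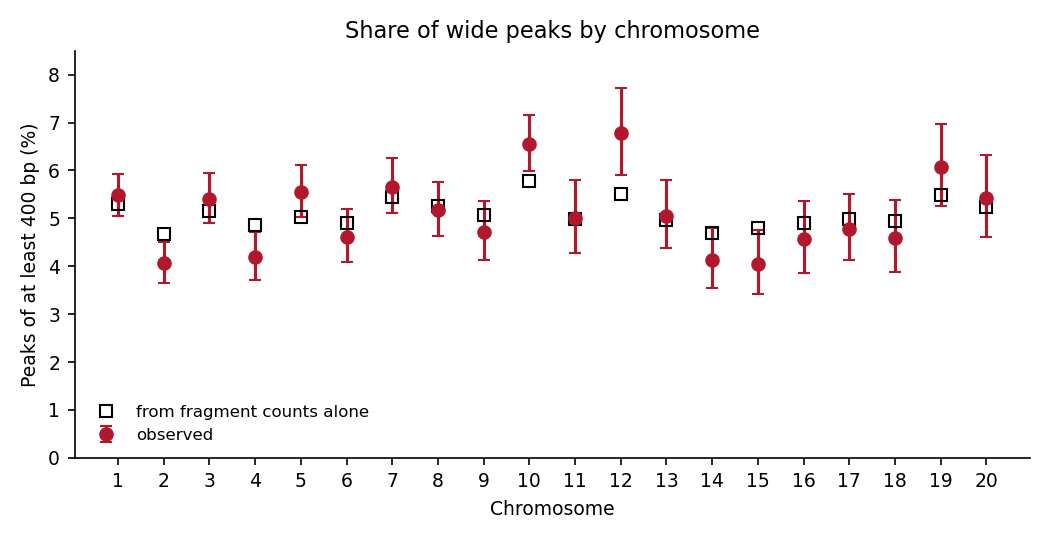
Percentage of the peaks of each autosome that were at least 400 bp wide (red circles, lines are exact 95% binomial intervals) and the percentage that its fragment counts alone would give (open squares), by chromosome (horizontal axis). Chromosomes 10 and 12 stand at 6.56 and 6.78%, above their squares at 5.78 and 5.52%. Chromosomes 2, 4, and 15 stand at 4.06, 4.19, and 4.06%, below their squares at 4.68, 4.86, and 4.81%.

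The wide peaks of different chromosomes were alike in size and height. Their median width ran from 448.5 to 480 bp and their median fold from 3.33 to 3.52 across the 20 autosomes. The share with a central summit was lowest on chromosome 17, at 17.8% (12.5 to 24.2%). It was highest on chromosome 14, at 31.5% (24.5 to 39.2%), both picked as the extremes of 20. The share with another summit within 5 kb was between 59.0% (chromosome 2) and 75.8% (chromosome 10).

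Along the chromosomes wide peaks were found in most windows but were unevenly spread. Of 2626 windows of 1 Mb, 2599 (99.0%) held a peak of any width and 1604 (61.1%) at least 1 wide peak. The 372 windows (14.2%) with at least 5 held 2820 wide peaks (53.4%). How unevenly peaks of any width were spread over the windows is not given here. The richest window was on chromosome 7 from 12000001 to 13000000, where 26 of 223 peaks (11.7%) were wide. On chromosome 1 from 221000001 to 222000000 the number was 20 of 155 (12.9%). Next, with 19 each, came chromosome 7 from 11000001 to 12000000 (of 171, 11.1%) and from 120000001 to 121000000 (of 160, 11.9%). Chromosome 10 from 86000001 to 87000000 also had 19 (of 142, 13.4%). From their fragment counts alone these windows would have held 16.8, 10.8, 12.6, 11.1, and 10.4 wide peaks, in the order named. The windows were picked for these counts, so the excess is a description. When each chromosome was cut into 10 equal parts, the share of wide peaks was lowest in part 3 at 4.43% (3.99 to 4.89%) and highest in part 9 at 5.96% (5.55 to 6.39%).

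A few wide peaks sat on exceptional background. A local background of 10 or more times the lowest one was found in 22 autosomal peaks, 4 of them wide. They were the peak on chromosome 19 from 56337874 to 56339073, with 884 fragments over 448 and a fold of 1.95, both peaks on chromosome 4 from 77447918 to 77448479 (564 over 240, fold 2.32) and from 77452495 to 77453004 (573 over 366, fold 1.55), and the peak on chromosome 13 from 89445371 to 89446595, with 121 over 47.0 and a fold of 2.52. The last had another wide peak as its nearest neighbor, of 943 bp from 89441020 to 89441962, with 67 fragments over 15.3 and a fold of 4.14. With the high-background peaks left out, 25.3% of wide peaks had a central summit and 68.0% had another summit within 5 kb, the values found with them.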

How the data were processed

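Sequencing covered 1 library of anti-FLAG ChIP and 1 of input chromatin. The study's methods give cross-linking, micrococcal nuclease digestion, and sonication, whereas the labels give 1% formaldehyde for 15 min, sonication alone, 13 cycles of PCR from 10 ng, and libraries of 250 to 450 bp. The authors called peaks in the ChIP library against its input, without pooling. Bowtie2 (2.2.6), deepTools (3.3.0), and SAMtools (1.7) appear in the submitters' processing notes with no role. Peak caller, settings, and duplicate handling were not given in the sources used here. Those notes also list a human build, but the sequence names and positions are those of rat rn6, and coordinates are 1-based on it. The only annotation at hand was of another rat build, so genes, promoters, motifs, and sequences at the peaks were not analysed here.

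For each peak the authors deposited coordinates, a summit offset, a fold over the local background (a ratio), a score, and the −log10 of a p-value and of a q-value. The deposited score repeats the p-value and was not used. Summit fragments and background were recovered from fold and p-value, assuming a pseudocount of 1 and a Poisson p-value, and all 103261 autosomal peaks returned the deposited −log10 p-value within 0.001. The steps were tested on simulated peaks made with the same assumptions. That test could check the arithmetic but not the assumptions, and its peaks were lower than the tallest named here. Library totals were not in the list, so depth is described by fragments per summit. The relative position of a summit is its offset over the width, and distances to other summits used autosomal peaks only. Named peaks are the 10 widest, the 10 of highest fold, the 10 of smallest p-value, those at the limit of 400 bp, and the 5 with the summit nearest an edge or nearest another summit. Windows, runs, the weakest members, and high-background peaks were named after their values were seen. Members and lists were chosen with earlier results of these data known. Weightings to fragment counts or chromosomes were added after seeing the data. Python 3.11.15, numpy 2.4.6, scipy 1.17.1, pandas 2.3.3, and matplotlib 3.10.9 were used.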

Additional observations from a re-analysis of the deposited data

How the results depend on the processing

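No paired analysis was possible because there was a single ChIP library. Of the 5281 wide peaks, 4147 had a q-value of at most 0.05 and 5277 remained without high-background peaks. The number was 9110 at a limit of 350 bp, 1917 at 500 bp, 1184 at a fold of at least 4, and 381 for a q-value of at most 1e-05, by the construction of these limits. The share with a central summit moved outside its interval at 500 bp (31.8%) and at a fold of at least 4 (26.7%). The share with another summit within 5 kb was 65.8% at 350 bp, 71.4% at 500 bp, 53.7% for a q-value of at most 0.05, 16.98% for a fold of at least 4 (both with fewer peaks left as neighbors), 69.7% between edges, 22.2% within 1 kb, and 93.7% within 20 kb. The median fold was 3.36 at 350 bp, 3.55 at 500 bp, 3.62 at that q-value, and 4.45 at that fold. The highest share on a chromosome was 10.7% at 350 bp, 9.33% at that q-value, and 16.2% at that fold, each on chromosome 12, and 2.58% at 500 bp, on chromosome 10. At the limits of 350 and 500 bp, under the limits on q-value (0.05) and fold, and without high-background peaks, wide peaks had fewer central summits, more neighbors within 5 kb, and a higher median fold than other peaks, which was not compared for a q-value of at most 1e-05. With other peaks weighted to fragment counts, the difference from wide peaks was 8.77 percentage points for neighbors within 5 kb (8.62 with chromosomes) and -33.8 for central summits (-33.6 with chromosomes). The alternatives for motifs and promoters were not run. With 16 fragments at the median wide peak, counting error limits the ranking of single peaks.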
